A study of Homo sapiens with 6 samples.

Results

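The genes described here are 10 genes of YAP/TEAD signalling: the coactivator genes YAP1 and WWTR1 (which encodes TAZ), the DNA-binding partner TEAD1, the inhibitory genes LATS2, AMOTL1 and AMOTL2, and the target genes CTGF, CYR61, ANKRD1 and AXL. They were chosen by symbol, as the rows of the deposited comparison table that carry these names, and all 10 were found among its 13008 genes. Polyadenylated RNA was sequenced from hTERT-RPE1, a telomerase-immortalised line derived from human retinal pigment epithelium, in a derivative labelled Tet-FLAG-FOXM1c, in which doxycycline induces a tagged form of the transcription factor FOXM1. The dox group (3 libraries) carries the genotype label FOXM1 overexpression and was given doxycycline at 1 µg/mL, renewed every 24 h, over 48 h. The no dox group (3 libraries) has the same cell line label, the genotype label WT and the treatment label none. The sources do not say whether the line is a single clone. Doxycycline on its own, without a transgene, was not analysed here, so it cannot be told apart from induced FOXM1. No label says that replicates were grown as separate cultures, and p-values therefore rest on a spread between samples that may be technical.

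YAP and TAZ are transcriptional coactivators that do not bind DNA themselves and act mainly through TEAD factors. The Hippo kinases LATS1 and LATS2 phosphorylate YAP and TAZ, which keeps them out of the nucleus, and angiomotin family proteins bind and retain them. In adherent cells the pathway responds to cell density, shape and tension, and CTGF, CYR61 and ANKRD1 are its usual readout genes. LATS2 and AMOTL2 are themselves YAP/TEAD targets, so they act as feedback inhibitors. Messenger RNA levels do not show where YAP and TAZ are in the cell or whether they are phosphorylated.

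TEAD factors recognise a core of letters CATTCC, read as GGAATG on the other strand, and promoters of the readout genes are shown because they carry it. Promoter windows of 250 bases before the start site were taken from the RefSeq table of build GRCh38.p14, in which 8 of the 10 genes matched, with 11 start sites (all but CYR61 and TEAD1). The TEAD core was present in at least 1 window of 5 of these 8 genes, against 14.3% of 27305 genes in the table, and in 11.9% of all 35116 windows. Other lists also exceeded the 14.3% of genes, with 5 of 13 MRTF/SRF targets (38.5%), 8 of 24 Hippo regulators (33.3%) and 6 of 19 further YAP/TAZ-TEAD targets (31.6%). The core was also in 1 of 6 other TEAD and VGLL genes (16.7%) and in 1 of 1 other CCN genes matched. It was in 0 of 4 genes of the AXL receptor family and its ligands. CTGF held 3 cores, as did 0.0826% of all windows (at least 3), and ANKRD1 held 2, as did 0.94% (at least 2). The windows of CTGF (chr6:131951373-131951622, minus strand), ANKRD1 (chr10:90921088-90921337, minus strand) and the second listed start site of AMOTL2 (chr3:134374448-134374697, minus strand) are given 5′ to 3′ in gene direction, with the TEAD core in capitals:
CTGF: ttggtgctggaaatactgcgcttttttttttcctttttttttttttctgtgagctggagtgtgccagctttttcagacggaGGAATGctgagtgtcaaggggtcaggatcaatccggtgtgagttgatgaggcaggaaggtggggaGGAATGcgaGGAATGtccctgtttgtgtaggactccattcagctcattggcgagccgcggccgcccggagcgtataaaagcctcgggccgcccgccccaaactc
ANKRD1: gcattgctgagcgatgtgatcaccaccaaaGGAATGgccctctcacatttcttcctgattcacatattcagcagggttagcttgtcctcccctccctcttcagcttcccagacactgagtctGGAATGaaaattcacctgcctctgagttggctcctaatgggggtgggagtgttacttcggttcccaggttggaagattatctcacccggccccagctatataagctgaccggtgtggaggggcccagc
AMOTL2: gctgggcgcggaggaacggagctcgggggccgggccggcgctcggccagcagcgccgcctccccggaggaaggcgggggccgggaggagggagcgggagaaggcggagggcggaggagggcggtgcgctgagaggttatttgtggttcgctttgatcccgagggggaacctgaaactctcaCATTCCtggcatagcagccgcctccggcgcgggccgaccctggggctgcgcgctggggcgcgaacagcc
In CTGF the cores began 169, 104 and 95 bases before the start site, so that a pair lay 9 bases apart, while in ANKRD1 they began 220 and 128 bases before it and in AMOTL2 the single core began 69 bases before it. The coactivator gene YAP1 and the receptor gene AXL (second listed start site) had 1 core each, shown with 10 bases on either side:
YAP1, chr11:102110275-102110300: ggagtgtgcaGGAATGtagcaacttg
AXL, chr19:41226533-41226558: gactttgcacCATTCCactccctccg
No core was found in the windows of WWTR1, AMOTL1 and LATS2. The AP-1 letters TGACTCA or TGAGTCA, present in 4.2% of all windows, and the CArG box bound by SRF, present in 1.16%, were in none of the 11 windows. A match is a run of letters, not a measured binding site.

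FOXM1 itself had 65289, 66830 and 74976 normalised counts in dox replicates 1, 2 and 3 and 5009, 4383 and 4292 in the no dox replicates, a rise of 3.92 on the log2 scale (SE 0.10, limma adjusted p = 4.49e-06). Normalised counts are the authors' depth-equalised values, and whole reads recovered from their CPM gave 15094498 to 49882123 reads per library. Between 632 and 73701 reads per library stood behind each of the 10 genes. The part of counting error in their spread between libraries or between pairs was not tested. Of 13153 genes tested, 0.540% changed over all libraries (limma, Benjamini-Hochberg adjusted p under 0.05). Libraries with equal replicate numbers shared their deviations from the group means, and with the replicate number as a block (comparing dox with no dox within each numbered pair) 22.5% of genes changed, 10.2% higher and 12.4% lower. Of the 11 pigment epithelium markers listed, 7 stayed under 0.1 FPKM in every library, including RLBP1, TYR and TTR, and RPE65 reached 0.220 at most, while the transcription factor genes MITF and OTX2 lay between 1.91 and 3.14. PMEL, BEST1 and LRAT were also under 0.1 but stood in the normalised table. FPKM divides by the authors' gene widths, which were not compared with transcript lengths for the markers. The epithelial genes EPCAM (0 in all libraries) and CDH1 (at most 0.0106) were near absent, and KRT8 and KRT18 were present. Endothelial and leukocyte markers were at most 0.105 FPKM for the 11 of 12 found.

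Per unit of length CTGF, CYR61, ANKRD1 and AXL stood far above the other 6 genes, of which AMOTL2 and LATS2 are also YAP/TEAD targets. In no dox libraries the deposited FPKM values were 363 ± 128 for ANKRD1, 347 ± 35.1 for CYR61, 345 ± 110 for CTGF and 132 ± 6.96 for AXL, and below them 13.0 ± 0.192 for WWTR1, 9.41 ± 0.271 for YAP1, 8.43 ± 0.583 for TEAD1, 8.25 ± 1.51 for AMOTL2, 6.70 ± 0.200 for AMOTL1 and 4.61 ± 0.605 for LATS2 (SD, n = 3). ANKRD1, CYR61 and CTGF differed among themselves by less than their spread, as did TEAD1 and AMOTL2. The authors' gene widths set this order in part, because they exceed the longest coding transcript of GENCODE 29 more than 2-fold for 6 of the 10 genes (24682 against 5398 bases for YAP1, 12751 against 4737 for AXL) and equal it for CTGF (2339) and ANKRD1 (1979). Divided by transcript length instead, a choice made after the data were seen, AXL stood at 356 ± 18.7 CPM per kilobase, between ANKRD1 (363) and CTGF (345), with CYR61 at 431 ± 43.6. On the same scale AMOTL2 (44.1 ± 8.07), YAP1 (43.0 ± 1.24), WWTR1 (41.2 ± 0.607) and TEAD1 (36.1 ± 2.50) came close together, with AMOTL1 at 20.6 and LATS2 at 8.06. CTGF, CYR61, ANKRD1 and AXL lay above the other 6 genes on both scales. With AMOTL2 and LATS2 among those 6, this is not an order of all targets against regulators.

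**Figure D1:**
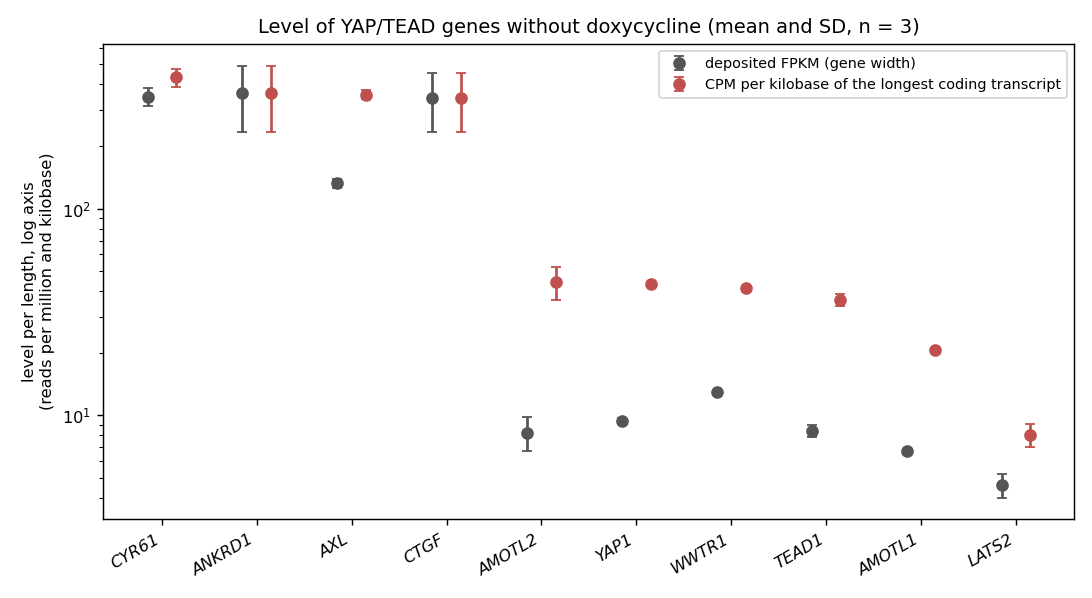
Level per length of the 10 genes in the 3 no dox libraries (points, mean; bars, SD; log axis), as deposited FPKM by gene width (grey) and as CPM per kilobase of the longest coding transcript (red). AXL moves from 132 to 356 with the choice of length, and CTGF, CYR61, ANKRD1 and AXL stay above the other 6 genes on both scales.

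The comparison of dox with no dox asked how these genes changed when FOXM1 was induced. Over all libraries none of the 10 passed the test (limma), beside 0.540% of all genes. EdgeR's quasi-likelihood test and DESeq2 on recovered reads also called 0, beside 67 of 13008 and 522 of 13004 genes. At an unadjusted p under 0.05 there was 1 of the 10, beside 13.0% of all genes. The authors' deposited table called none of them either, with adjusted p-values from 0.360 for WWTR1 upwards, while it called 2.78% of its genes. Their median log2 change was -0.026, against -0.0022 for all tested genes. With the replicate block 1 rose (ANKRD1) and 4 fell (WWTR1, CYR61, AXL and CTGF), beside 10.2% of all genes higher and 12.4% lower. EdgeR with the block gave 1 higher and 3 lower, beside 1481 and 1566 of 13008 genes.

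**Figure D2:**
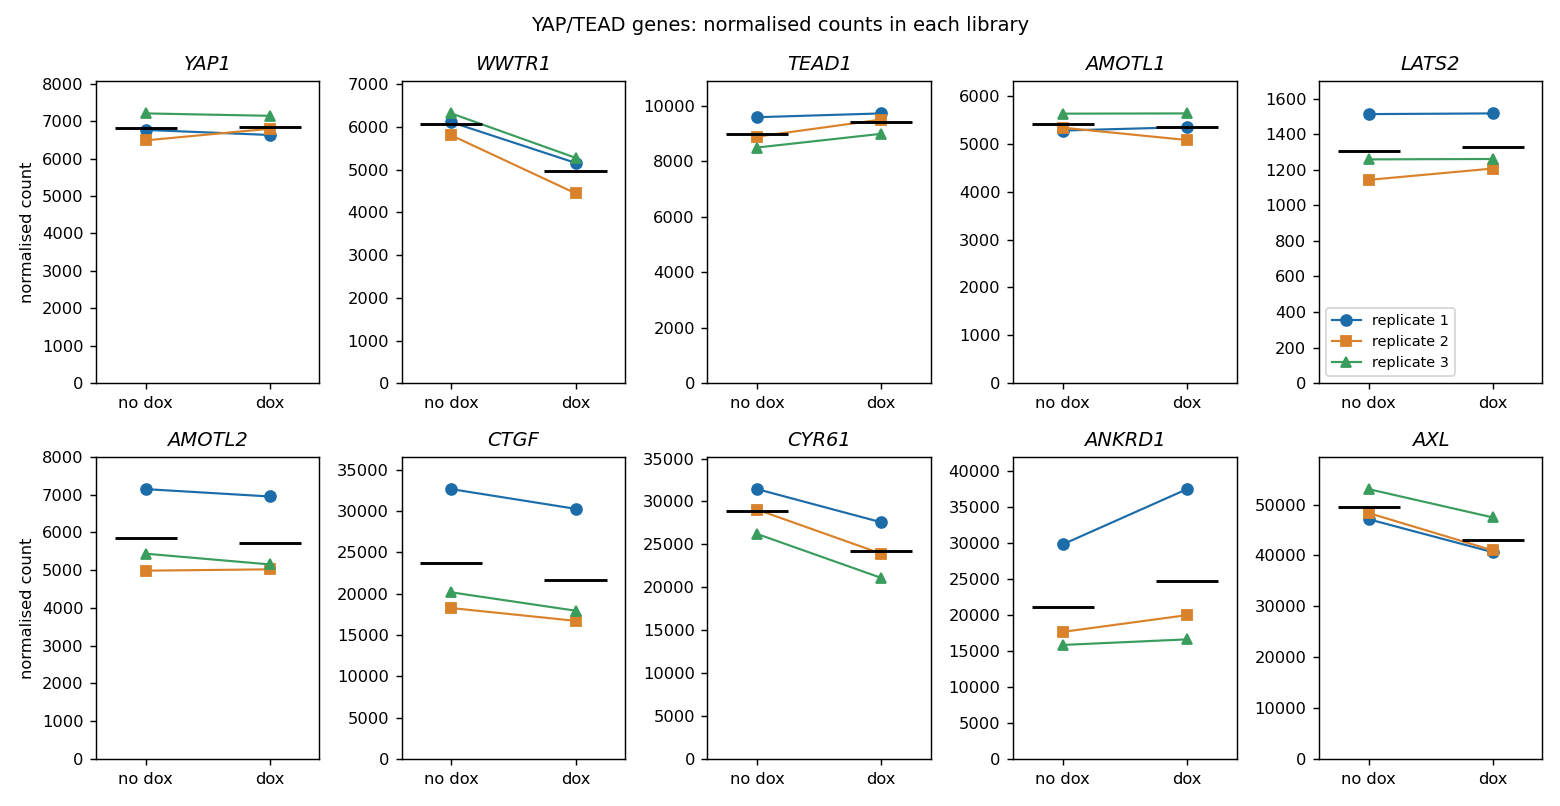
Normalised counts (vertical axes, starting at 0) of the 10 genes in each library, with lines joining libraries of the same replicate number and black bars at the group means (n = 3). Replicate 1 stands apart in CTGF, ANKRD1 and AMOTL2 in both groups, and the 3 dox libraries of WWTR1 lie below all 3 no dox libraries.

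Of the coactivator genes, WWTR1 was lower in every dox library and YAP1 was not, a difference between them that was not tested. YAP1 (ENSG00000137693, chromosome 11, 101981192 to 102104154 of hg19) had 6631, 6798 and 7143 normalised counts in dox replicates 1, 2 and 3 and 6766, 6486 and 7207 in the no dox replicates. The groups overlapped throughout, and its log2 change of 0.0085 (SE 0.077, 95% interval -0.17 to 0.19, limma adjusted p = 0.982) leaves room for a rise or fall of that size. WWTR1 (ENSG00000018408, chromosome 3, 149235022 to 149454501) had 5161, 4449 and 5281 normalised counts in dox against 6115, 5806 and 6320 in no dox libraries, or 4963 ± 449.7 against 6080.1 ± 258.7 (SD, n = 3 each). Every dox library lay below every no dox library, the 1 case of no overlap among the 10 genes, where 19.1% of all genes had none in either direction. The log2 change of WWTR1 was -0.30 (SE 0.089), a level 18.5% lower, which missed the threshold (limma adjusted p = 0.200). With the replicate block it fell (SE 0.044, limma adjusted p = 0.00155), by 0.24, 0.38 and 0.26 in pairs 1, 2 and 3. TEAD1 (ENSG00000187079, chromosome 11, 12695969 to 12966298), the DNA-binding partner, had 9718, 9498 and 8983 normalised counts in dox and 9581, 8881 and 8489 in no dox libraries. All 3 pairs of TEAD1 were higher in dox, as for 26.5% of all genes, but the change of 0.066 on the log2 scale (SE 0.081) passed neither test (limma adjusted p = 0.826, and 0.274 when blocked).

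The inhibitory genes did not pass in either analysis, and their pairs moved little. LATS2 (ENSG00000150457, chromosome 13, 21547171 to 21635686), a kinase that phosphorylates YAP and TAZ, had 1516, 1207 and 1260.2 normalised counts in dox and 1513, 1143 and 1258 in no dox libraries. Replicate 1 of LATS2 was the highest in both groups, and the log2 change was 0.028 (SE 0.13, 95% interval -0.27 to 0.33). AMOTL1 (ENSG00000166025, chromosome 11, 94439597 to 94609918), an angiomotin-like scaffold, stayed between 5081 and 5637 normalised counts in all 6 libraries, with a log2 change of -0.017 (95% interval -0.19 to 0.16). AMOTL2 (ENSG00000114019, chromosome 3, 134074716 to 134094321), its close relative and a YAP/TEAD target, had 6952, 5022 and 5152 in dox and 7147, 4986 and 5436 in no dox libraries. AMOTL2 was thus 1.37-fold higher in replicate 1 than in replicates 2 and 3 in each group, while its change with doxycycline was -0.036 (SE 0.17, limma adjusted p = 0.960, and 0.572 when blocked).

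CTGF and CYR61 encode secreted matricellular proteins of the CCN family and are the classical readouts of YAP/TEAD activity. CTGF (ENSG00000118523, chromosome 6, 132269316 to 132272513) had 30268, 16709 and 17939 normalised counts in dox and 32654, 18259 and 20160 in no dox libraries. Replicate 1 was the high library in both groups, 1.72-fold above replicates 2 and 3, and the groups overlapped. The change of CTGF was -0.14 (SE 0.28, limma adjusted p = 0.904), and without dox replicate 2 or without no dox replicate 1 its sign turned (0.025 and 0.12). Within pairs it was lower by 0.11, 0.13 and 0.17, and it fell with the block (SE 0.042, limma adjusted p = 0.0434). That call was close to the threshold: over 6 settings with the block, CTGF passed in 2, and edgeR with the block gave an adjusted p of 0.0540. CYR61 (ENSG00000142871, chromosome 1, 86046444 to 86049645) had 27574, 23913 and 21094 normalised counts in dox and 31443, 29059 and 26219 in no dox libraries. Here the groups overlapped only through dox replicate 1, which lay above no dox replicate 3. The log2 change of CYR61 was -0.26 (SE 0.13, limma adjusted p = 0.450), or -0.17 without dox replicate 3, and with the block it fell (SE 0.045, limma adjusted p = 0.00333), with pair values of -0.19, -0.28 and -0.31.

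ANKRD1, which encodes a nuclear and sarcomeric ankyrin repeat protein, was higher with doxycycline within pairs. ANKRD1 (ENSG00000148677, chromosome 10, 92671853 to 92681033) had 37493, 19981 and 16612 normalised counts in dox and 29821, 17653 and 15838 in no dox libraries. Replicate 1 again stood apart, 1.92-fold above replicates 2 and 3, and the groups overlapped. The log2 change was 0.19 (SE 0.33, limma adjusted p = 0.889), and without dox replicate 1 it was -0.15. Each pair of ANKRD1 was higher in dox, by 0.33, 0.18 and 0.069, and with the block it rose (SE 0.054, limma adjusted p = 0.0287), a call kept in 5 of 6 settings with the block. The log2 ratio of ANKRD1 to CTGF, looked at after the values were seen, was higher in dox in every pair (0.44, 0.31 and 0.24), and that of ANKRD1 to CYR61 likewise (0.52, 0.46 and 0.38). Exact two-sided permutation tests over the unpaired libraries gave p = 0.2 and p = 0.3, but they cannot go below 0.1 and so do not decide whether the targets differ. AXL (ENSG00000167601, chromosome 19, 41725108 to 41767671), a receptor tyrosine kinase of the TAM family, had 40634, 40984 and 47464 normalised counts in dox and 47114, 48339 and 53032 in no dox libraries. Only dox replicate 3 of AXL reached above the lowest no dox library. Its log2 change was -0.20 (SE 0.12, limma adjusted p = 0.530), and it fell with the block (SE 0.046, limma adjusted p = 0.0119), by 0.21, 0.24 and 0.16.

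**Figure D3:**
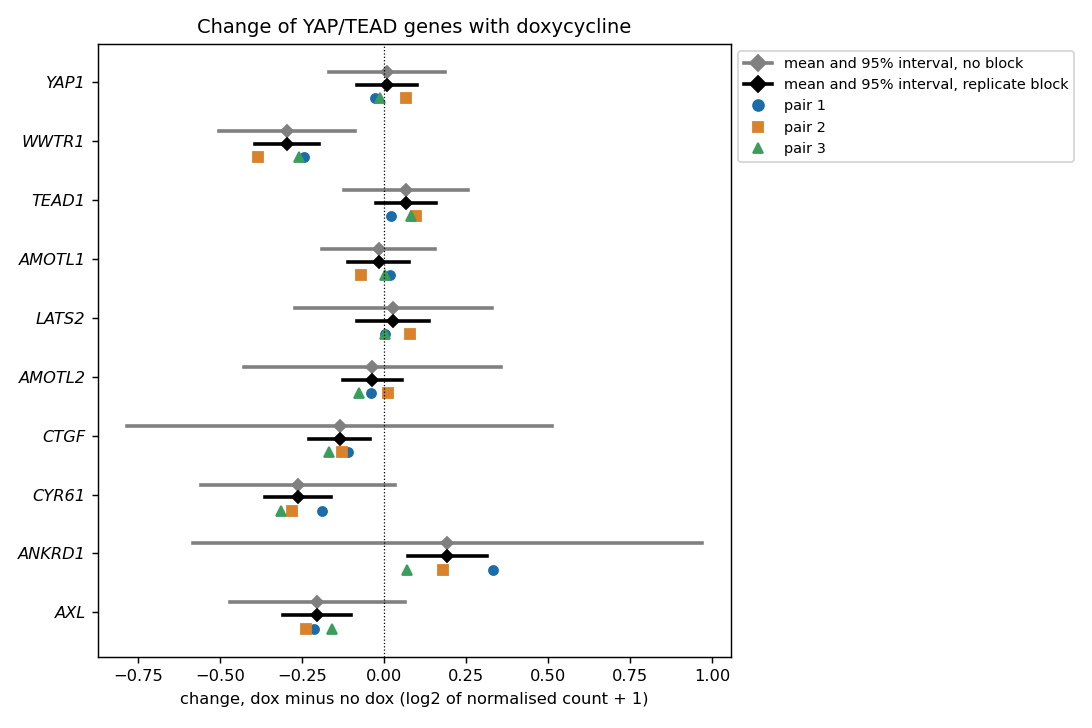
Change of each gene, dox minus no dox on the log2(normalised count + 1) scale (horizontal axis), with the 95% interval without the block (grey) and with the replicate block (black) and the 3 pairs below (coloured). For CTGF the interval runs from -0.78 to 0.51 without the block and from -0.23 to -0.042 with it, and WWTR1 stays below 0 in both.

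For 8 of the 10 genes the replicate number took a larger part than doxycycline of the variation over the 6 libraries. The same held for 9424 of 13153 tested genes, and replicate number has 2 degrees of freedom against 1 for doxycycline. The share of the sum of squares of log2 values that followed the replicate number was 98.6% for AMOTL2, 97.9% for LATS2, 96.7% for CTGF, 94.4% for ANKRD1, 84.3% for YAP1, 83.5% for AMOTL1 and 71.6% for TEAD1, beside a median of 61.5% over all tested genes. For CYR61 it was 49.6% against 48.4% for doxycycline, and doxycycline had the larger share for AXL (56.6%) and WWTR1 (75.1%). Replicate 1 was the highest of its group in both groups for 6 of the 10 genes, a pattern held by 27.2% of all genes, but its size differed, from 1.92-fold for ANKRD1 to 1.18-fold for CYR61 and 1.08-fold for TEAD1. In AXL replicate 1 was lower (0.926-fold). Replicate 1 had neither the highest nor the lowest total of reads in either group. The labels do not say what sets replicate 1 apart, and its part in these values was not tested. Without replicate 1 of both groups, limma called 0 of the 10, beside 44 of 13153 tested genes. With the block as well, on 1 residual degree of freedom, 1 was higher and 4 lower. Of all tested genes 1761 were then higher and 2074 lower, more than the 1338 and 1627 with the block over all libraries.

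**Figure D4:**
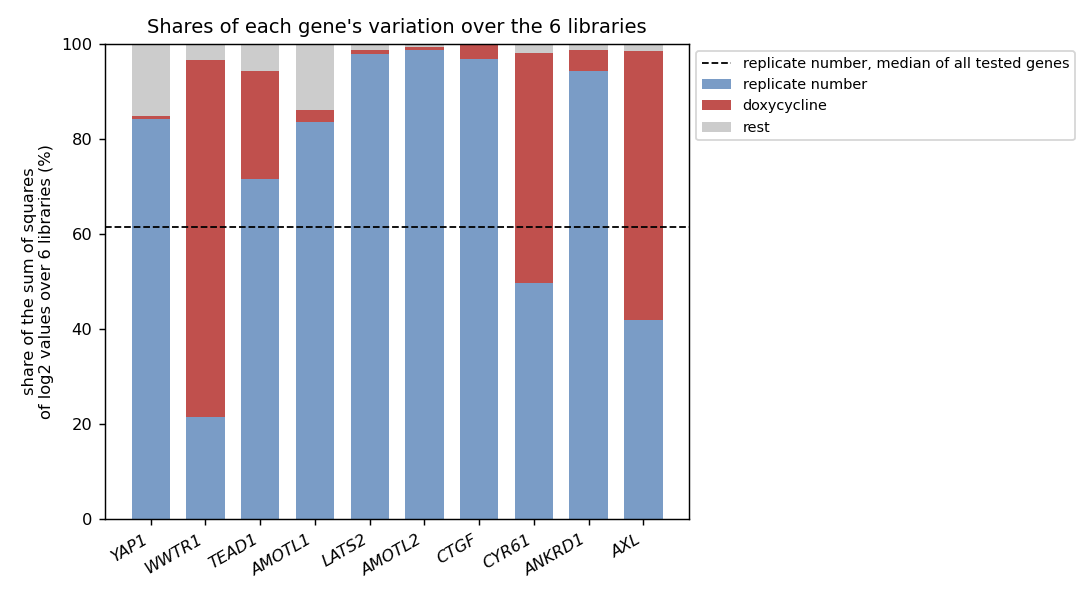
Share of each gene's variation over the 6 libraries (stacked to 100%) that followed the replicate number (blue), doxycycline (red) or neither (grey), with the median replicate share of all tested genes, 61.5%, as a dashed line. Replicate number takes over 94% for AMOTL2, LATS2, CTGF and ANKRD1, and doxycycline the larger part for WWTR1 and AXL.

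The genes whose values over the 6 libraries most resembled each readout gene, among 6556 genes at or above the median level, were named by Pearson's r as a measure of likeness only. For CTGF these were the clathrin light chain gene CLTB (0.999), the growth factor gene FGF2 (0.998) and the calcium pump gene ATP2A2 (0.997). FGF2 had 5937, 2834 and 2925 normalised counts in dox and 6230, 3147 and 3501 in no dox libraries, the same high replicate 1 as CTGF. For CYR61 they were POGK (0.997), the secreted protease gene ADAMTS1 (0.992) and the non-muscle myosin gene MYH9 (0.991), and ADAMTS1 fell with the block (-0.71, limma adjusted p = 5.89e-05). For ANKRD1 they were the histidyl-tRNA synthetase gene HARS, GADD45GIP1 and the proteasome gene PSMC4 (0.990 to 0.991). The 6 libraries share replicate numbers, so a high value can come from replicate 1 alone.

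The other TEAD genes and cofactors gave 1 further case of a change within pairs. None of the 5 measured members of that list passed limma, and 1 had an unadjusted p under 0.05, beside 13.0% of all genes. EdgeR and DESeq2 called 0 of them, beside 67 of 13008 and 522 of 13004 genes. VGLL3, a vestigial-like cofactor that binds TEAD factors, had 5249.98, 4748 and 4870 normalised counts in dox and 4343, 3058 and 3803 in no dox libraries. It was the 1 of these 5 genes whose groups did not overlap, beside 19.1% of all genes in either direction. It was higher by 0.42 on the log2 scale (SE 0.13, limma adjusted p = 0.203), and it rose with the block (adjusted p = 0.00166). TEAD3 changed by -0.12 and passed neither (limma adjusted p = 0.717, and 0.117 with the block). VGLL1 and VGLL2 were listed at 0 FPKM in all libraries. Of 27 measured Hippo kinases and upstream regulators none passed limma (2 at an unadjusted p under 0.05, 0 by edgeR and DESeq2), with a median of -0.065, and 2 rose and 2 fell with the block. These counts are below the shares of all genes, which were 13.0% at the unadjusted threshold and 10.2% higher and 12.4% lower with the block. AMOT, the founding angiomotin gene, fell with it (-0.30, SE 0.056, limma adjusted p = 0.00511) and the protocadherin gene FAT4 rose (0.22, adjusted p = 0.0169). NF2, the upstream tumour suppressor merlin, named after its values were seen, was 1.69-fold higher in replicate 1 in both groups and changed by 0.036 with doxycycline (limma adjusted p = 0.593 with the block).

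Further YAP/TAZ-TEAD target genes, 26 in a list without the members, were lower more often than higher within pairs, and most were highest in replicate 1. None passed limma (2 at an unadjusted p under 0.05, fewer than the 13.0% of all genes), and their median change was -0.020. EdgeR called 0 of them and DESeq2 1, beside 67 of 13008 and 522 of 13004 genes. With the block 11 fell and 1 rose, beside 12.4% and 10.2% of all genes. ARHGAP29 had 12019, 12895 and 14228 normalised counts in dox and 15271, 16696 and 18819 in no dox libraries. It was the 1 of these 26 genes whose groups did not overlap, beside 19.1% of all genes in either direction. ARHGAP29 fell with the block (-0.37, SE 0.040, limma adjusted p = 0.000291, and 0.187 without it). LHFP fell likewise (-0.40, limma adjusted p = 0.00165 with the block). The 1 that rose was the stress gene GADD45A (0.29, adjusted p = 0.00249 with the block), which is also a p53 target, named after its values were seen. Replicate 1 was highest in both groups for 18 of these 26 genes (69.2%), beside 27.2% of all genes. The furthest were IGFBP3 (3.33-fold), EDN1 (2.42-fold) and the tissue factor gene F3 (2.10-fold), while NT5E was lower in replicate 1 (0.632-fold).

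**Figure D5:**
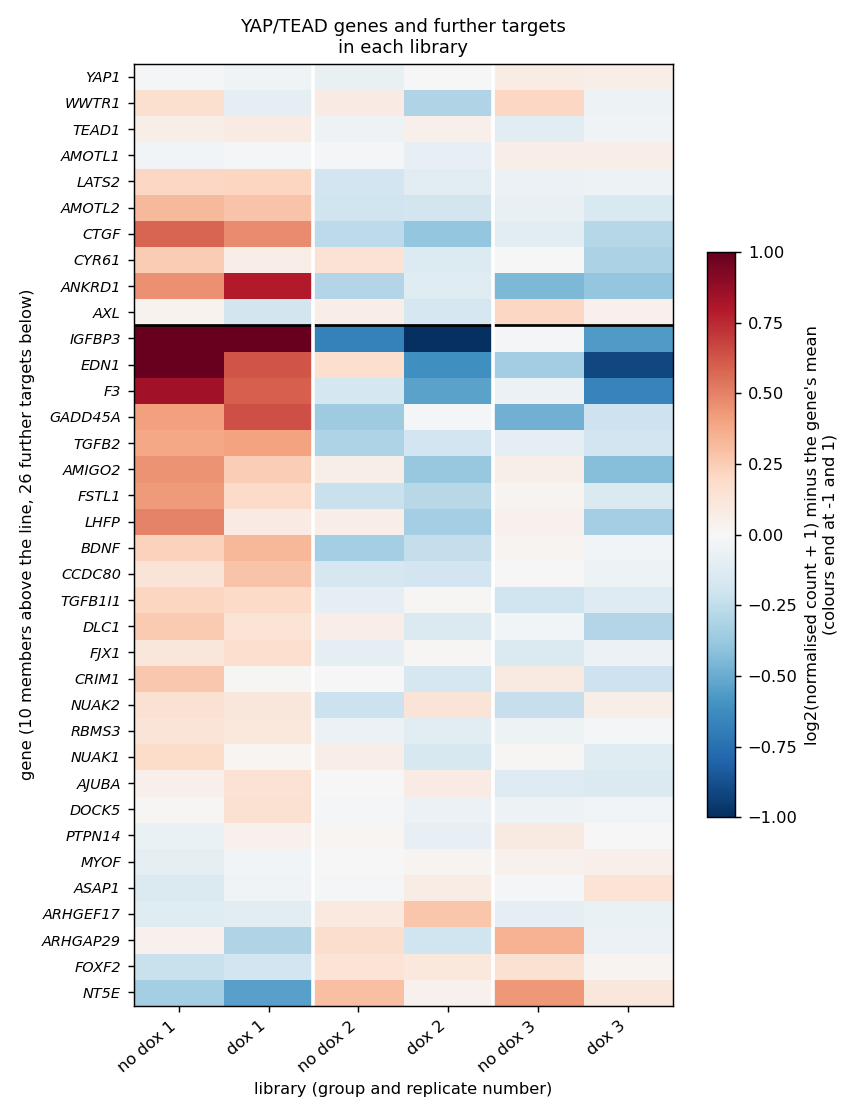
Each library's log2(normalised count + 1) minus the gene's mean (colour, ending at -1 and 1) for the 10 genes above the line and 26 further targets below it, libraries ordered by replicate number and genes below the line by their excess in replicate 1. Both replicate 1 columns are red for CTGF, ANKRD1, IGFBP3, EDN1 and F3 and blue for NT5E.

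Relatives of the target genes were set beside them. In the CCN family NOV was the 1 other gene in the normalised table, and WISP1, WISP2 and WISP3 were at most 0.0117 FPKM. NOV had 2434, 2308 and 2376 normalised counts in dox and 1811, 1434 and 1373 in no dox libraries. Its groups did not overlap, as for 19.1% of all genes in either direction. NOV was higher by 0.63 on the log2 scale (SE 0.11), short of the threshold without the block (limma adjusted p = 0.0628) and past it with the block (0.000252) and with DESeq2. Its direction was thus opposite to those of CTGF and CYR61, and the difference was not tested. TYRO3, a receptor of the same family as AXL, had 666, 718 and 767 normalised counts in dox and 1066, 900.3 and 922 in no dox libraries, a change of -0.42 (SE 0.099, limma adjusted p = 0.112, and 0.00511 with the block), and GAS6, the ligand of both, changed by -0.26 (adjusted p = 0.606, and 0.00455 with the block). Of these 4 AXL relatives none passed limma. An unadjusted p under 0.05 was found for 1, and 2 fell with the block, beside 13.0% and 12.4% of all genes. EdgeR called 0 of the 4 and DESeq2 1, beside 67 of 13008 and 522 of 13004 genes. The receptor gene MERTK and the ligand gene PROS1, named to complete the list, had changes of 0.18 and 0.17 and passed neither test (limma adjusted p = 0.928 and 0.844, and 0.555 and 0.0971 with the block).

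Genes driven by SRF and its actin-regulated MRTF cofactors were also mostly highest in replicate 1. Replicate 1 was highest in both groups for 12 of 16, beside 27.2% of all genes. Its median excess was 1.30-fold, against 0.999-fold for all tested genes. The smooth muscle genes ACTA2 (3.45-fold) and TAGLN (2.57-fold), named after their values were seen, were furthest. The part of this pattern in the values of CTGF and ANKRD1 was not tested. Of the 16 genes 1 passed limma, beside 0.540% of all genes, and 1 had an unadjusted p under 0.05, beside 13.0%. That gene was CNN1, calponin (1.92, SE 0.26, limma adjusted p = 0.0411). CNN1 had 178, 163 and 159 normalised counts in dox and 62.3, 29.9 and 43.0 in no dox libraries. CNN1 also passed with edgeR (0.0408), DESeq2 (4.54e-08) and the block (0.000149). Leaving out 1 library kept its change between 1.66 and 2.18, but leaving out any other than no dox replicate 1 ended the limma call (adjusted p from 0.0706 without dox replicate 1 to 0.153 without dox replicate 3, with 0.0983, 0.0985 and 0.137 without dox replicate 2 and no dox replicates 2 and 3). With the block 1 of the 16 rose (CNN1) and 2 fell, beside 10.2% and 12.4% of all genes. The 2 that fell were the muscle LIM gene FHL1 (-0.30, limma adjusted p = 0.00977) and the vinculin gene VCL (-0.15, adjusted p = 0.0472). The tropomyosin gene TPM4 (-0.094, adjusted p = 0.186) did not pass. Among epithelial markers the tight junction gene CLDN1 rose (0.82, limma adjusted p = 0.0447), and KRT8 and KRT18 rose with the block (0.29 and 0.32, adjusted p = 0.00111 and 0.000804). Without the block KRT8 and KRT18 did not pass (limma adjusted p = 0.569 and 0.621). The summed FPKM of the 7 epithelial markers ran from 72.4 to 102.8 in dox and from 57.3 to 80.3 in no dox libraries. KRT8 and KRT18 made up most of it. Of the 4 tested, 3 rose with the block, beside 10.2% of all genes. Summed FPKM of the 9 fibroblast markers, mostly VIM, ran from 303 to 422 in dox and from 331 to 441 in no dox libraries. Of the 6 tested, THY1 (-0.27) and PDGFRA (-0.38) fell with the block, 2 genes beside 12.4% of all genes. Without the block neither passed (limma adjusted p = 0.533 and 0.582). The part of these markers in the changes above was not tested.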

How the data were processed

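RNA-seq was analysed for 6 libraries, 3 dox and 3 no dox, grouped and numbered by their sample titles. Build hg19 and the tools TopHat, Trimmomatic, edgeR and bcl2fastq are named, without roles or versions, per the submitters' processing notes. Strand use and the treatment of multi-mapping reads are not given in the sources used here. For 13161 genes the authors deposited normalised counts, a signal brought to similar totals by a formula that is not given there either. The authors deposited FPKM values for 57773 genes, and CPM for 13008 genes in a comparison table whose log2 fold change, likelihood ratio score, p-value and adjusted p-value columns are theirs, per the file headers. FPKM equals CPM divided by the table's gene width in kilobases. CPM values were whole multiples of 1 read in 100% of cases (tolerance 0.01), which gave the reads and totals.

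Groups were compared by a two-sided limma-trend test of log2(normalised count + 1) with no block and 4 residual degrees of freedom. It covered the 13153 genes that reached 10 normalised counts in 3 or more libraries, and calls needed p under 0.05 after Benjamini-Hochberg adjustment over them. Fold changes on this scale understate those of low genes. Across genes, the deviations of dox and no dox libraries with equal numbers correlated at 0.745, 0.726 and 0.768. They were on this ground treated as pairs. Blocked values (2 residual degrees of freedom) are printed where they change a call, and for some genes where they do not. Chi-square per degree of freedom between libraries of a group was at least 16.0, so none were duplicates.

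The members and lists were chosen with earlier results of these data known. All 10 members are named, and from each list the 2 genes with the smallest p, with 2 more where a gene passed, then the 3 genes most like CTGF, CYR61 and ANKRD1. Of 93 listed genes 87 were in the normalised table, and 2 stand in 2 lists. The alternatives tried were a pseudocount of 0.25 or 5, a filter at 50 or none, log2(FPKM + 0.1), TMM and median-of-ratios scaling, the block, leaving out each library, and edgeR's quasi-likelihood test and DESeq2 on the recovered reads. Block combinations, leaving out replicate 1 of both groups, and transcript lengths were added after the data were seen. The fits were also run on simulated data whose spread was set and not taken from these libraries, so that run does not vouch for the calls here. Software was Python 3.11.15 with matplotlib 3.10.9, and R 4.3.3 with DESeq2 1.42.0, edgeR 4.0.16 and limma 3.58.1.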

Additional observations from a re-analysis of the deposited data

How the results depend on the processing

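Without the block, 0 of the 10 genes passed in any of the 16 settings run, and adjusted p-values of WWTR1 ran from 0.102 to 0.475. With the replicate block 5 passed, 4 with edgeR and the block, 3 on FPKM with the block, 4 with TMM or median-of-ratios scaling and the block, and 5 without replicate 1 of both groups with the block. WWTR1, CYR61 and AXL passed in all 6 settings with the block, ANKRD1 in 5 and CTGF in 2, and no other member's call changed with the block. On FPKM with the block CYR61 and AXL were close to the threshold (limma adjusted p = 0.0426 and 0.0470). These settings reuse the same libraries and the same block, so they are not independent of each other. Over all genes 71 were called, against 2965 with the block, 3047 with edgeR and the block, 2081 on FPKM with the block, 2978 and 2992 with TMM and median-of-ratios scaling and the block, 31 on FPKM, 522 with DESeq2, 44 without replicate 1 of both groups and 3835 with the block as well. Leaving out 1 library gave 3 to 21. The calls were 42 higher and 29 lower, but 26 and 5 on FPKM and 218 and 304 with DESeq2. Of the pathway lists without the members 1 gene was called, against 23 with the block, 22 with edgeR and the block, 17 on FPKM with the block, 21 with either scaling and the block, 4 with DESeq2, 2 without replicate 1 of both groups and 28 with the block as well. Leaving out 1 library gave 0 to 2. The sign of AMOTL1 turned on FPKM (0.0094, without and with the block), and those of the 6 genes named next turned when 1 library was left out. Then YAP1 ran from -0.027 to 0.049, CTGF from -0.40 to 0.12, ANKRD1 from -0.15 to 0.47, AMOTL1 from -0.055 to 0.020, AMOTL2 from -0.19 to 0.12 and LATS2 from -0.071 to 0.14. The other 4 kept their sign, with TEAD1 from 0.026 to 0.11, WWTR1 from -0.34 to -0.22, CYR61 from -0.36 to -0.17 and AXL from -0.28 to -0.15. The cause of these differences was not tested. With 3 libraries a group, a change whose interval spans 0 cannot be told from 0.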
